A study of Ranunculus trichophyllus with 6 samples.

Results

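The 5 homologs described here are the *Ranunculus trichophyllus* matches of genes of ethanol fermentation and of the low-oxygen response: *ADH1* (AT1G77120, alcohol dehydrogenase), *PDC1* (AT4G33070) and *PDC2* (AT5G54960, both pyruvate decarboxylases), *SUS4* (AT3G43190, a sucrose synthase) and *LBD41* (AT3G02550, a transcription factor with a LOB domain). They were taken by name: a transcript belongs to a homolog where its best protein match in the annotation is that *Arabidopsis* gene. By this rule 8 transcripts were found among the 17559 with an *Arabidopsis* match and the 210686 assembled, and their counts were summed into 5 of 8613 homologs. The rule itself uses no measured value, but the 5 genes were picked with earlier results of these data known.

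*R. trichophyllus* is an amphibious buttercup that makes broad leaves on land and thin, cylindrical leaves under water. RNA was sequenced from plants kept on land (terrestrial) or soaked from the age of 1 week (aquatic), with 3 libraries per condition. All plants grew at 22 °C with 16 h of light and 8 h of dark, and seedlings were frozen without cotyledons and hypocotyl. The methods of the study name whole plants as the source of RNA, while a figure legend names the upper seedling parts with leaves and apexes. No strain, genotype or chemical agent is named for either condition. By the labels, replicate 1 of either condition was leaf tissue taken at 14 days. The other 2 replicates, taken at 11 days, also held the shoot apical meristem, whereas the methods of the study give 1 harvest after another interval. Age, tissue and harvest therefore cannot be told apart. Values of a condition are listed in the order of replicates 1, 2 and 3, so the 14-day library comes first. The labels do not say whether replicates came from separate cultures, so p-values measure only the spread between these libraries.

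The libraries held from 25345718 to 33978729 expected counts. Homologs took from 54.2% to 56.3% of them, except in aquatic replicate 1, where they took 33.4% and 3 transcripts held 36.2%. Green leaf markers were abundant in every library, with a summed level of 50499 to 85965 CPM (counts scaled to the homolog total of the library, after TMM). The apex markers *STM* and *KNAT1* were at 0 counts in both 14-day libraries, and the 7 matched apex and division markers summed to 30.7 and 16.6 CPM there against 298 to 606 CPM at 11 days. The 6 matched root markers of 17 listed summed to 5.58, 16.8 and 11.1 CPM on land and 8.46, 9.28 and 11.5 CPM under water.

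When oxygen is short, mitochondrial respiration slows and plant cells draw more of their ATP from glycolysis. Pyruvate decarboxylase then turns pyruvate into acetaldehyde, and alcohol dehydrogenase reduces this to ethanol, which renews the NAD+ that glycolysis needs. Sucrose synthase feeds the pathway by splitting sucrose into UDP-glucose and fructose. In *Arabidopsis*, *PDC1*, *ADH1*, *SUS4* and *LBD41* are induced by ethylene response factors of group VII. These factors are broken down through their oxidized N terminus when oxygen is plentiful.

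The 5 homologs did not move together. *PDC1* and *ADH1* fell in aquatic plants, *SUS4* and *LBD41* rose, and *PDC2* did not pass the test. In these 4 the aquatic and terrestrial CPM values did not overlap, which held for 25.6% of the 8154 homologs tested. By edgeR with harvest as a term, 4 of the 5 passed at an adjusted p under 0.05, against 16.4% of all tested homologs, of which 9.60% were higher and 6.78% lower in aquatic plants. As the 5 were picked with results known, these shares are a description. DESeq2 called 32.9% of all homologs (16.8% higher, 16.1% lower) and 37.6% were under an unadjusted p of 0.05 (19.6% and 18.0%), against which the counts of genes called by these rules are to be read. In bulk tissue, fewer cells of a type and less RNA per cell cannot be told apart.

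**Figure D1:**
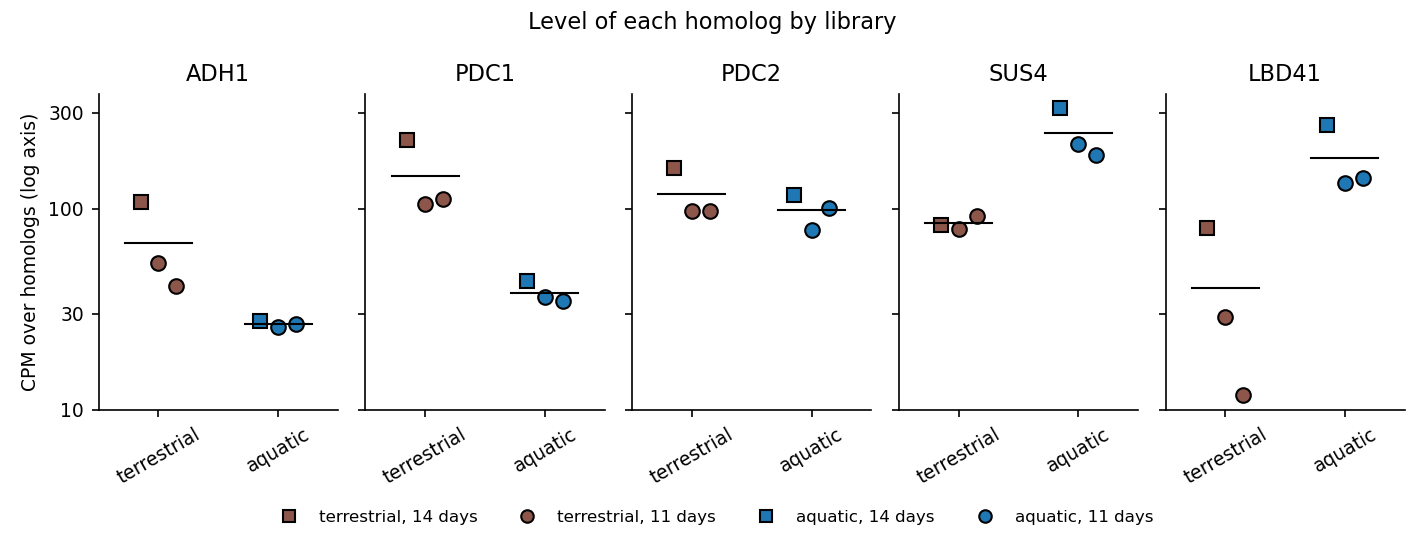
Level of each of the 5 homologs in every library, in CPM on a log axis, by condition. Squares are 14-day and circles 11-day libraries, and horizontal lines are means of 3 libraries. *PDC1* lay between 106 and 219 CPM on land and between 34.6 and 43.6 CPM under water, while the values of *PDC2* overlapped.

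*PDC1* encodes the pyruvate decarboxylase that low oxygen induces in *Arabidopsis*. It had 219, 106 and 112 CPM on land. Under water it had 43.6, 36.4 and 34.6 CPM. The 14-day terrestrial library was the highest, and all 3 aquatic libraries lay far below the lowest terrestrial one. *PDC1* fell 3.61-fold (log2 difference -1.85 ± 0.18 (SE), edgeR adjusted p = 0.0114), and it was the only member to pass with the replicate number as a block (adjusted p = 0.0387), where 5.46% of homologs passed. The call was lost without terrestrial replicate 3 (adjusted p = 0.0626) or aquatic replicate 2 (adjusted p = 0.0580). Few homologs of any kind were called in such fits: 70 without terrestrial replicate 3 and 0 without aquatic replicate 2, against 1336 with all libraries. Without terrestrial replicate 2 there were 158, and without aquatic replicate 3 there were 601. Losses of single genes below are to be read against these counts.

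*PDC2* encodes a second enzyme of the same step. It had 159, 97.4 and 97.7 CPM on land. Under water it had 117, 78.0 and 101 CPM. The groups overlapped, and the highest library of each condition was the 14-day one. The log2 difference was -0.23 ± 0.15 (SE, edgeR adjusted p = 0.304), so no difference was detected at this number of libraries. In TPM, which the authors scaled to all transcripts, *PDC2* had 49.3, 31.4 and 32.9 on land and 29.6, 22.6 and 29.2 under water. These TPM values did not overlap, as was the case for 28.2% of homologs. In aquatic replicate 1, with 117 CPM but 29.6 TPM, 3 transcripts held 36.2% of the counts, and TPM is scaled with them included. Their part in the TPM values was not tested.

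*ADH1* encodes the enzyme that makes ethanol from acetaldehyde. It had 108, 54.0 and 41.2 CPM on land. Under water it had 27.7, 25.8 and 26.8 CPM. The aquatic libraries were nearly equal, the terrestrial ones were spread, and the groups did not overlap. *ADH1* fell 2.33-fold (log2 difference -1.22 ± 0.27 (SE), edgeR adjusted p = 0.0435). With the replicate number as a block it did not pass (adjusted p = 0.103), and it was also lost without any 1 of terrestrial replicate 2, terrestrial replicate 3, aquatic replicate 2 or aquatic replicate 3 (adjusted p = 0.137, 0.0908, 0.114 and 0.0894).

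Ratios of expected counts within a library do not depend on library size. *PDC1* over *PDC2* was 1.38, 1.09 and 1.14 on land and 0.373, 0.467 and 0.343 under water. *PDC1* thus held more counts than *PDC2* in every terrestrial library and fewer in every aquatic one, with geometric means of 1.20 and 0.391. *ADH1* over *PDC1* was 0.492, 0.509 and 0.369 on land and 0.636, 0.708 and 0.774 under water. The aquatic values were the higher ones, so that *PDC1* counts were the more unequal of the pair between conditions. The groups did not overlap in any of the 4 ratios computed. Each gave p = 0.10 in the two-sided exact permutation test (adjusted p = 0.10 over the 4). This is the smallest p that 3 against 3 libraries can give, so the test could not pass 0.05. *PDC1*, *ADH1* and *SUS4*, picked with results known, did not overlap on their own either. No share over other pairs of homologs was computed, so the ratios are a description.

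**Figure D2:**
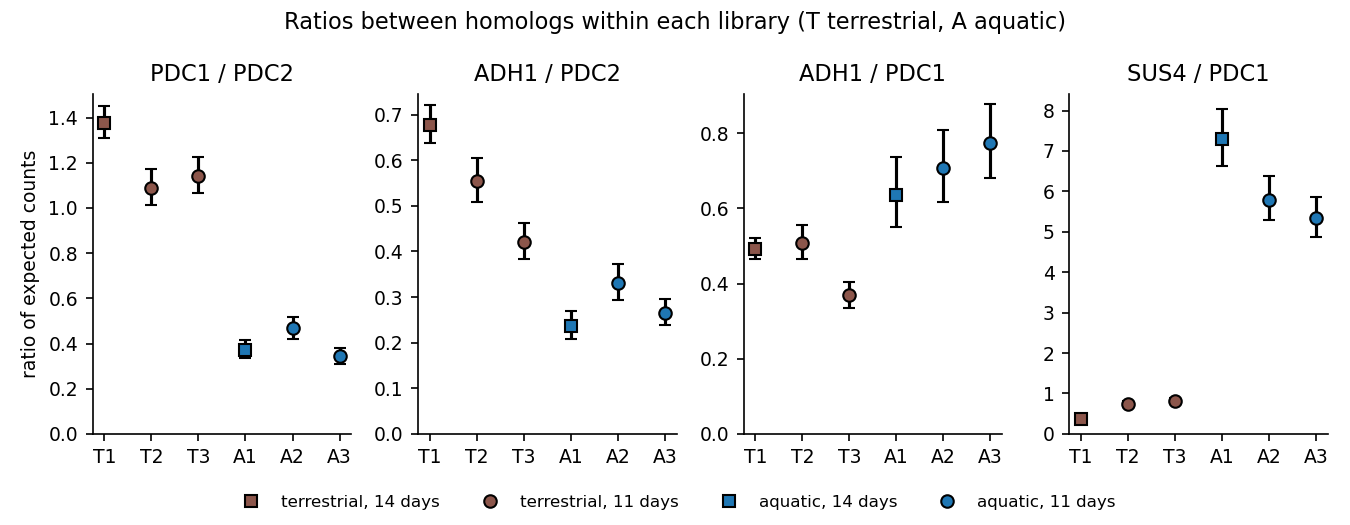
Ratios of expected counts between pairs of homologs within each library, for terrestrial (T1 to T3) and aquatic (A1 to A3) replicates. Bars are 95% exact intervals and cover counting error only, squares are 14-day and circles 11-day libraries. *PDC1* over *PDC2* lay above 1 in T1 to T3 and below 0.5 in A1 to A3.

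*SUS4* encodes a sucrose synthase that in *Arabidopsis* is raised by low oxygen together with *SUS1*. It had 82.7, 79.6 and 91.9 CPM on land. Under water it had 318, 211 and 185 CPM. The terrestrial libraries were close to each other, and every aquatic library was above all of them. *SUS4* rose 2.73-fold (log2 difference 1.45 ± 0.20 (SE), edgeR adjusted p = 0.0173). With the replicate number as a block it did not pass (adjusted p = 0.0530), and it was lost without terrestrial replicate 2, terrestrial replicate 3 or aquatic replicate 2 (adjusted p = 0.0740, 0.0690 and 0.0685). *SUS4* over *PDC1* in counts was 0.378, 0.750 and 0.823 on land and 7.29, 5.80 and 5.34 under water.

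*LBD41* encodes a LOB domain protein that belongs to the core of low-oxygen genes in *Arabidopsis*. It had 80.4, 29.1 and 11.8 CPM on land. Under water it had 261, 135 and 142 CPM. It varied most among terrestrial libraries, from 184 to 1297 expected counts, and its lowest aquatic value was above its highest terrestrial one. *LBD41* rose 5.30-fold (log2 difference 2.41 ± 0.43 (SE), edgeR adjusted p = 0.0258). It did not pass with the replicate number as a block (adjusted p = 0.0616), nor without terrestrial replicate 2, terrestrial replicate 3, aquatic replicate 2 or aquatic replicate 3 (adjusted p = 0.0814, 0.0554, 0.0875 and 0.0705). This match is also the most distant of the 5, with 56% of residues identical.

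Levels between genes can be set side by side in TPM, which is per transcript length. On land the means were 43.5 ± 17.3 (SD, n = 3) TPM for *PDC1*, 38.0 ± 18.1 for *ADH1*, 37.9 ± 9.93 for *PDC2*, 20.6 ± 17.6 for *LBD41* and 17.1 ± 1.90 for *SUS4*. *PDC1* was first in all 3 terrestrial libraries, but the means of the first 3 genes, and those of *LBD41* and *SUS4*, differed by less than their spread. Under water the means were 78.3 ± 24.1 (SD, n = 3) TPM for *LBD41*, 40.5 ± 8.56 for *SUS4*, 27.2 ± 3.91 for *PDC2*, 13.2 ± 0.700 for *ADH1* and 9.88 ± 0.425 for *PDC1*. This order was the same in all 3 aquatic libraries, so *PDC1* went from first to last of the 5. Among all homologs with a TPM value, *PDC1* stood at percentiles 75.9 to 88.2 in terrestrial libraries and 43.6 to 50.4 in aquatic ones.

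With the harvests apart, each of *ADH1*, *PDC1*, *SUS4* and *LBD41* kept its direction in both. In the 14-day pair, with 1 library per condition and so no test, aquatic over terrestrial CPM was 0.257 for *ADH1* (95% exact interval of counting error 0.227 to 0.291) and 0.199 for *PDC1* (0.181 to 0.219). It was 3.85 for *SUS4* (3.61 to 4.10), 3.25 for *LBD41* (3.04 to 3.47) and 0.736 for *PDC2* (0.688 to 0.787). In the 11-day harvest, counts of the 2 libraries per condition were pooled and divided by their pooled scaled totals. The ratio of aquatic over terrestrial was then 0.555 for *ADH1*, 0.326 for *PDC1*, 2.296 for *SUS4*, 6.86 for *LBD41* and 0.924 for *PDC2*. *ADH1*, *PDC1* and *SUS4* were thus farther from 1 at 14 days, and *LBD41* at 11 days.

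In the 11-day harvest alone, *ADH1* and *PDC1* fell and *SUS4* and *LBD41* rose in edgeR, where 19.7% of homologs passed. The log2 difference was -0.85 ± 0.17 (SE) for *ADH1* and -1.61 ± 0.12 for *PDC1* (adjusted p = 0.0348 and 0.00708). It was 1.21 ± 0.14 for *SUS4* and 2.76 ± 0.44 for *LBD41* (adjusted p = 0.0138 and 0.0219), and -0.12 ± 0.16 for *PDC2* (adjusted p = 0.611). The difference of the aquatic effect between harvests, tested as an interaction, passed for 4.61% of homologs and for none of the 5. Its adjusted p was 0.128 for *ADH1*, 0.144 for *PDC1*, 0.601 for *PDC2*, 0.206 for *SUS4* and 0.497 for *LBD41*. Before adjustment, *ADH1*, *PDC1* and *SUS4* were past 0.05, and *PDC2* and *LBD41* were not. In DESeq2 none of the 5 passed either.

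**Figure D3:**
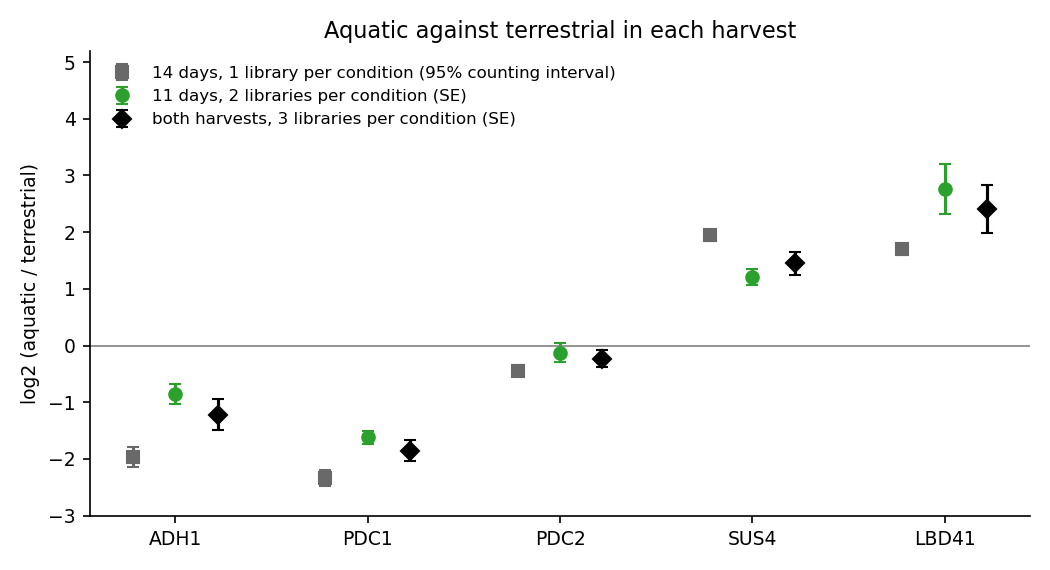
Log2 of aquatic over terrestrial level for each homolog in the 14-day harvest (squares, 95% counting interval), in the 11-day harvest (circles, estimate and SE) and in both together (diamonds, estimate and SE). *ADH1* and *PDC1* lie below 0 and *SUS4* and *LBD41* above 0 in each harvest, with *PDC2* nearest to 0.

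Between harvests, *PDC1*, *PDC2* and *LBD41* were higher at 14 days than at 11 days in a test that 33.8% of homologs passed, 15.4% as higher and 18.4% as lower. The log2 difference was 0.67 ± 0.18 (SE) for *PDC1*, 0.55 ± 0.15 for *PDC2* and 1.47 ± 0.42 for *LBD41* (edgeR adjusted p = 0.0444, 0.0463 and 0.0481). It was 0.67 ± 0.28 for *ADH1* and 0.33 ± 0.20 for *SUS4*, which did not pass (adjusted p = 0.125 and 0.260). Both moved with single 14-day libraries: *ADH1* ran from 0.075 without terrestrial replicate 1 to 1.24 without aquatic replicate 1, where it passed (adjusted p = 0.0176), and *SUS4* from 0.0070 without aquatic replicate 1 to 0.68 without terrestrial replicate 1, where it passed (0.0420). The 3 harvest calls were lost without terrestrial replicate 1, terrestrial replicate 2 or aquatic replicate 2 (adjusted p = 0.153, 0.126 and 0.0761 for *PDC1*, 0.192, 0.133 and 0.106 for *PDC2*, and 0.213, 0.0845 and 0.105 for *LBD41*). Without terrestrial replicate 3, *PDC1* and *PDC2* were lost (0.125 and 0.126), and without aquatic replicate 3, *PDC1* and *LBD41* (0.0836 and 0.0877). By condition, the 14-day level over the mean 11-day level was 2.26 on land and 1.05 under water for *ADH1*, and 0.964 on land and 1.61 under water for *SUS4*. The apex markers moved with the harvest as well, and their part in these differences was not tested.

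Of the 8 transcripts behind the 5 homologs, 7 passed the same test run per transcript, where 10.5% of 58039 passed. *PDC1* was carried by c58262_g1_i1 (2108 bases, 86% identical residues) and c58262_g1_i2 (2365 bases, 82%), with 46.0% and 54.0% of its counts. Both fell, by log2 differences of -1.81 ± 0.21 (SE) and -2.04 ± 0.21 (adjusted p = 0.00836 and 0.00602). *PDC2* was carried by c58262_g2_i1 alone (2101 bases, 81%), which gave -0.31 ± 0.17 (adjusted p = 0.297). The 3 transcripts belong to 1 assembly cluster, so how reads were split between *PDC1* and *PDC2* is uncertain.

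*ADH1* was carried by c53871_g2_i5 (1234 bases, 85%), which covers residues 2 to 272 of 379 and held 76.2% of its counts, and by c53509_g1_i3 (1383 bases, 81%), which covers residues 2 to 377. The log2 differences were -1.19 ± 0.26 (SE) and -1.70 ± 0.33 (adjusted p = 0.0400 and 0.0310), neither of which passed with the replicate block (adjusted p = 0.0867 and 0.0748), where 5.72% of transcripts did. c53509_g1_i3 held 30.9%, 19.6% and 20.4% of the *ADH1* counts on land and 21.4%, 13.6% and 17.9% under water, so the shares overlapped between conditions. *SUS4* was carried by c60932_g3_i1 (3033 bases) and c60932_g3_i2 (3552 bases), both 74% identical over residues 5 to 808. They shared the counts almost equally, with 49.1% to 50.9% each in every library, and both rose (1.39 ± 0.20 and 1.35 ± 0.22, adjusted p = 0.0139 and 0.0186, the second 0.0535 with the block). *LBD41* had the single transcript c50794_g1_i1 (1373 bases, residues 1 to 261 of 263), at 2.34 ± 0.40 (adjusted p = 0.0211). All 5 of these calls were lost without terrestrial replicate 2 (adjusted p of 0.0683 to 0.127) or aquatic replicate 2 (0.0646 to 0.109), and those of *ADH1* and c60932_g3_i2 also without terrestrial replicate 3 (0.0541 to 0.0780). That of c53871_g2_i5 was also lost without aquatic replicate 3 (0.0727). With no filter on low counts the calls of both *ADH1* transcripts, c60932_g3_i2 and c50794_g1_i1 were lost (0.0640 to 0.153).

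The assembly clusters hold further transcripts, most of them with no entry in the annotation table used here. The cluster of c53871_g2_i5 has 24 transcripts, of which this 1 holds 38.5% of the counts. Of its 12 other tested transcripts 3 passed, all lower in aquatic plants: c53871_g1_i1, c53871_g1_i2 and c53871_g2_i9 (log2 differences -1.15, -1.36 and -1.48, adjusted p = 0.0170, 0.0157 and 0.00968). In the cluster of *PDC1* and *PDC2* the fragment c58262_g1_i3 had -1.83 (adjusted p = 0.0102). When all transcripts of the same assembled genes were added, a choice made after the data were seen, *ADH1* had 2554, 1320 and 1115 counts on land and 554, 655 and 856 under water, and its log2 difference was -1.03 ± 0.24 (SE, adjusted p = 0.0477).

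**Figure D4:**
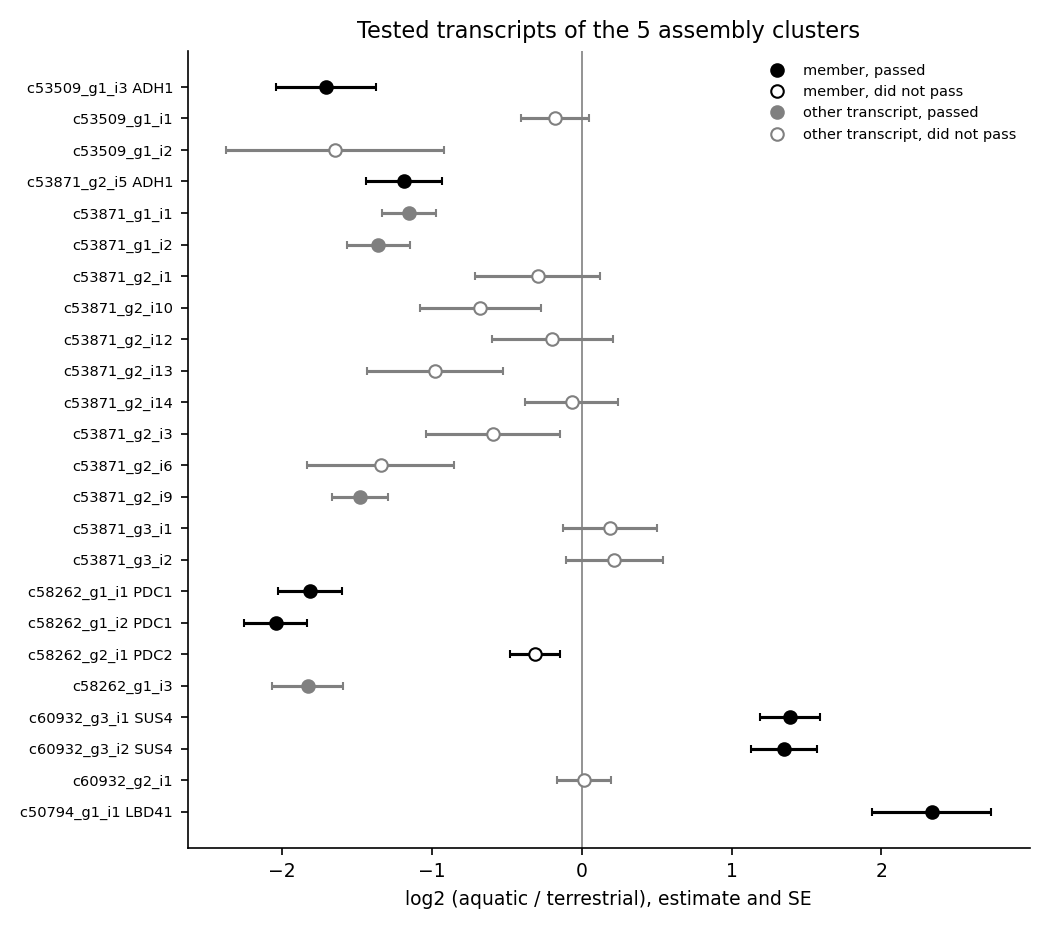
Log2 of aquatic over terrestrial level (estimate and SE) of the 24 tested transcripts in the assembly clusters of the 5 homologs. Black points are the 8 transcripts matched to them and grey points the 16 others, and filled points passed the test. The passing transcripts of *ADH1* and *PDC1* and the 4 grey ones lie below 0, those of *SUS4* and *LBD41* above 0.

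Other genes of the same steps were read from lists of *Arabidopsis* genes. Of 10 fermentation enzymes 6 were matched and tested, 0 rose and 2 fell, namely *ADH1* and *PDC1*. DESeq2 called 0 higher and 3 lower, *LDH1* among them (DESeq2 adjusted p = 0.0462). At an unadjusted p under 0.05, 0 were higher and 2 lower. The median log2 difference of this list was -0.60 against -0.017 over all homologs. *ADH1*, *PDC1* and *PDC2*, picked with results known, are among the genes behind this median. Of the 3 other tested genes 0 rose and 0 fell in edgeR. *LDH1*, lactate dehydrogenase, had 32.8, 52.5 and 59.7 CPM on land and 7.29, 43.0 and 40.0 under water (log2 difference -0.97 ± 0.38 (SE), adjusted p = 0.135). *ALDH2B4*, an aldehyde dehydrogenase of mitochondria, gave 1.32 ± 0.57 (adjusted p = 0.160), and *ALAAT1*, the alanine aminotransferase that stores pyruvate as alanine, gave 0.10 ± 0.13 (adjusted p = 0.608).

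Among 5 tested members of the alcohol dehydrogenase family, 0 rose and only *ADH1* fell in edgeR (median 0.23), while 2 others were higher in DESeq2 and at an unadjusted p under 0.05. Per transcript the family was mixed: of 12 tested transcripts of the 4 other members, 5 rose and 1 fell, and with the replicate block 2 were higher and 0 lower. AT5G42250 had 3 that rose (c52815_g1_i2, c52815_g1_i3 and c55602_g1_i2, log2 differences 1.06, 1.04 and 1.68, adjusted p = 0.0296, 0.0200 and 0.0287) and 1 that fell (c52815_g1_i1, -0.69, adjusted p = 0.0463). AT5G24760 had 2 that rose (c60775_g1_i1 and c60775_g1_i2, 2.61 and 2.70, adjusted p = 0.0341 and 0.0157), which match it with 46% and 48% identical residues. AT1G22430 had 1.98, 3.88 and 2.51 CPM on land and 9.81, 7.08 and 5.54 under water, without passing (1.41 ± 0.37 (SE), adjusted p = 0.0618). Both transcripts whose best match was the zebrafish class III enzyme adh5 gave small log2 differences (-0.13 and -0.11, adjusted p = 0.644 and 0.681). The annotation covers 20788 of the 210686 assembled transcripts. In it no transcript was matched to *PDC3* or *PDC4*, the other pyruvate decarboxylases of *Arabidopsis*, and the 2 of *SUS4* were the only ones named sucrose synthase. Listed genes without a match may still be among the transcripts outside the annotation.

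For sucrose cleavage, 4 of 11 listed genes were matched and tested, 2 rose and 1 fell. Beside *SUS4*, the vacuolar invertase homolog *BFRUCT4* rose, from 140, 108 and 90.9 CPM on land to 686, 251 and 341 under water (log2 difference 1.81 ± 0.23 (SE), adjusted p = 0.0154). *BFRUCT3*, another vacuolar invertase, fell from 0.372, 11.8 and 14.7 CPM to 0, 0.756 and 0.739 CPM (-4.16 ± 0.30, adjusted p = 0.00724). Its values rest on 6, 173 and 229 counts on land and 0, 11 and 12 under water. The call of *BFRUCT4* was lost without terrestrial replicate 2, terrestrial replicate 3 or aquatic replicate 2 (adjusted p = 0.0576, 0.0836 and 0.0531), and that of *BFRUCT3* without terrestrial replicate 3 or aquatic replicate 2 (0.0546 and 0.0534). In limma with a pseudocount of 1, *BFRUCT3* was at -1.47 on quantile FPKM and -1.57 on TPM and did not pass (adjusted p = 0.0597 and 0.0614). *CINV2*, a cytosolic invertase, was at -0.04 ± 0.32 (adjusted p = 0.940).

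The low-oxygen sensing list covers the group VII factors and the enzymes that mark and degrade them, and 7 of 16 were matched and tested. 1 rose and 0 fell (3 and 0 in DESeq2 and at an unadjusted p under 0.05): *ATE1*, the arginyl transferase of this pathway, at 48.6, 34.7 and 31.3 CPM on land and 64.5, 50.2 and 54.0 under water (0.57 ± 0.11 (SE), adjusted p = 0.0341, but 0.0877 with the replicate block). *RAP2.3*, the only group VII factor matched, gave 0.51 ± 0.29 (adjusted p = 0.251), and *HRA1*, which in *Arabidopsis* restrains these factors, gave 0.89 ± 0.30 (adjusted p = 0.0975). *LBD38* was the only other class II LOB domain gene matched, of 6 listed. It rose from 56.4, 43.9 and 20.8 CPM to 140, 102 and 122 CPM (1.63 ± 0.32, adjusted p = 0.0325, and 0.0707 with the block). Without any 1 of the 11-day libraries neither call held (adjusted p of 0.0957 to 0.153 for *ATE1* and 0.0633 to 0.0968 for *LBD38*), and *ATE1* did not pass in limma on TPM (0.33, adjusted p = 0.0991).

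In the low-oxygen response list 15 of 33 genes were matched and 12 tested, of which 3 rose and 2 fell, with a median of 0.76. DESeq2 called 6 higher and 2 lower, as did an unadjusted p under 0.05. *ADH1*, *PDC1*, *SUS4* and *LBD41*, picked with results known, are among the genes behind these counts and the median. Of the 8 other tested genes 1 rose and 0 fell in edgeR, namely AT4G27450, a protein of the aluminium-induced family. It rose from 499, 275 and 141 CPM to 1888, 1301 and 2002 CPM (2.64 ± 0.41 (SE), adjusted p = 0.0200, and 0.0628 with the block). *RBOHD*, an oxidase that makes superoxide, gave 1.71 ± 0.44 (adjusted p = 0.0581), and it was called in DESeq2 together with *HRA1* and *WIP4*. Among 8 tested genes of starch breakdown and alternative carbon routes, 1 rose and 0 fell (median 0.85). This was *GAD1*, a glutamate decarboxylase, at 155, 116 and 134 CPM on land and 529, 283 and 179 under water (1.18 ± 0.28, adjusted p = 0.0490, and 0.111 with the block). DESeq2 called 3 higher and 1 lower in that list, as did an unadjusted p under 0.05. Without terrestrial replicate 2, terrestrial replicate 3 or aquatic replicate 2 the call of AT4G27450 was lost (adjusted p = 0.0790, 0.0757 and 0.0721), and that of *GAD1* was lost in 5 of the 6 cases of a library left out (0.0671 to 0.150). *GAD1* also did not pass in the 11-day harvest alone (0.0692), with RLE size factors (0.0501) or in limma on quantile FPKM or TPM with a pseudocount of 1 (0.0508 and 0.0536).

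**Figure D5:**
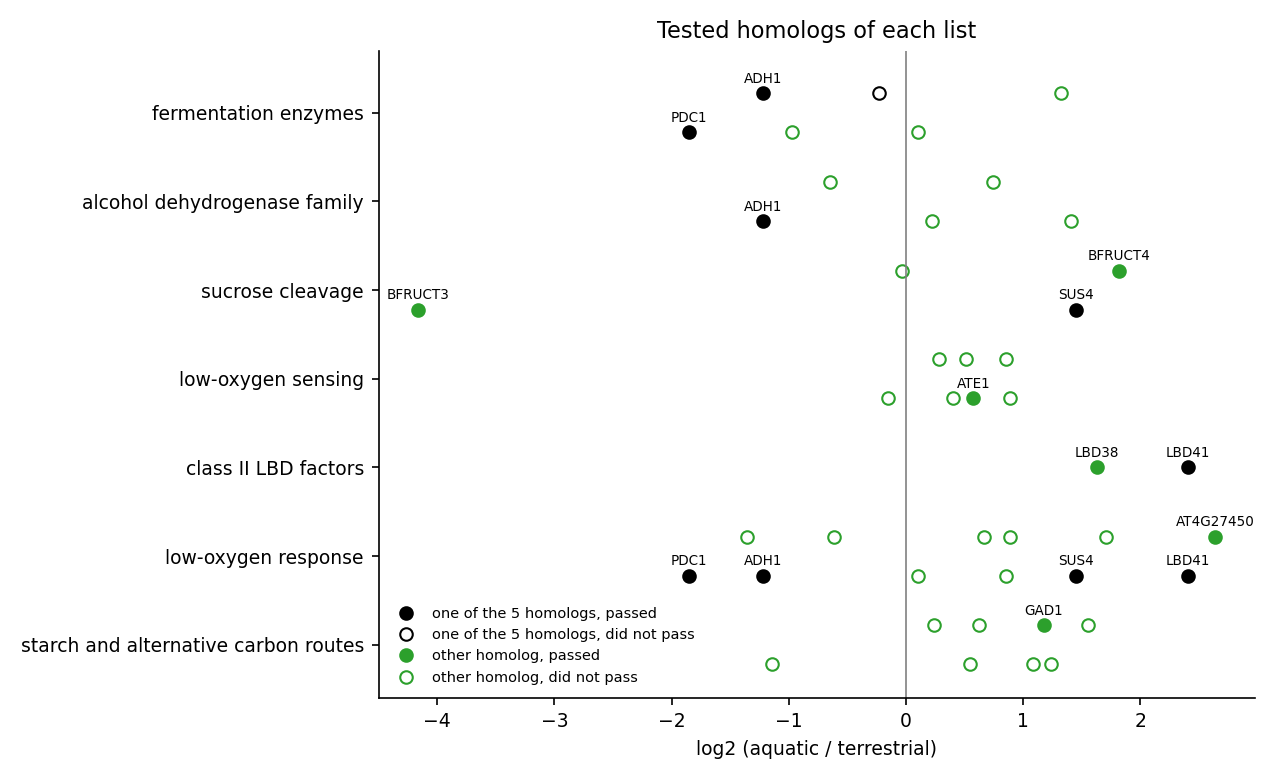
Log2 of aquatic over terrestrial level of every tested homolog in 7 lists. Black points are the 5 homologs and green points the other genes of a list, filled where they passed the test, and a gene on several lists is drawn in each. Of the filled points, *ADH1*, *PDC1* and *BFRUCT3* lie left of 0, while *SUS4*, *LBD41*, *LBD38*, *BFRUCT4*, *ATE1*, *GAD1* and AT4G27450 lie right of it.

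Marker lists give the background of cell types. None of the 4 tested root markers passed in either direction in edgeR (0 of 4, and *MYB36* and *FIT* had the smallest adjusted p at 0.0719 and 0.169), 1 was higher in DESeq2 and at an unadjusted p under 0.05, limma on quantile FPKM called *MYB36* and *FIT* higher (0.0408 and 0.0362), and the iron transporter *IRT1* had 125 and 51 counts in terrestrial replicates 2 and 3 and 0 in the other 4 libraries. Of 7 green leaf markers 0 rose and 1 fell, *RBCS1A* of the Rubisco small subunit (-1.44 ± 0.28 (SE), adjusted p = 0.0335, lost in 5 of the 6 cases of a library left out, 0.0549 to 0.117, in the 11-day harvest alone, 0.0534, and with the replicate block, 0.0878). DESeq2 called 1 leaf marker higher and 2 lower, as did an unadjusted p under 0.05. *RCA*, Rubisco activase, was among the lower ones (-0.93, DESeq2 adjusted p = 0.00419). In the apex list either rule gave 1 higher and 4 lower. Of 7 apex and division markers 0 rose and 4 fell: *CLV1*, *KNOLLE*, *CDKB2.1* and *AUR1* (log2 differences from -1.24 to -0.96, adjusted p = 0.0156, 0.0328, 0.0463 and 0.0308). These calls were lost without terrestrial replicate 3 or aquatic replicate 2, and some without terrestrial replicate 2 or aquatic replicate 3 (highest adjusted p of 0.0851, 0.133, 0.143 and 0.133). With the replicate block only *CLV1* passed (adjusted p = 0.0464), and *KNOLLE*, *CDKB2.1* and *AUR1* did not (0.0841, 0.105 and 0.0686), nor did they in limma on quantile FPKM (0.102, 0.171 and 0.0614). Of 4 housekeeping genes 1 rose, the glycolytic enzyme *GAPC2* (0.96 ± 0.22, adjusted p = 0.0471, and 0.114 with the block, 0.0527 in limma on TPM, 0.0505 with its leading transcript alone and 0.0907 to 0.140 without any 1 of the 11-day libraries). At an unadjusted p under 0.05, 3 of the 4 housekeeping genes were higher and 0 lower (1 and 0 in DESeq2), with a median of 0.40. The part of all these markers in the values of the 5 homologs was not tested.

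Among 6641 homologs of at least 10 CPM on average, those most like each of the 5 in log2(CPM + 1) over the 6 libraries were looked up as a description. The libraries share depth, condition and harvest, so high values are common. *ADH1* was most like *RCA*, Rubisco activase, with r = 0.994, *IDD5* (0.989) and AT3G03080 (0.988). *PDC1* was most like *ISA3*, a debranching enzyme of starch, with r = 0.991, again AT3G03080 (0.988) and *PDE318* (0.987).

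*PDC2* was most like *NKS1* (r = 0.995), AT5G67385 (0.992) and AT2G47710 (0.984). *SUS4* was most like AT2G26920, AT1G33090 and AT3G10300 (0.995, 0.995 and 0.994). *LBD41* was most like *PHR1*, the phosphate starvation regulator (0.999), *ILR3* (0.998) and AT1G68490 (0.997). Between the 5 homologs themselves, r was 0.955 for *ADH1* with *PDC1*, 0.817 for *LBD41* with *SUS4* and -0.860 for *PDC1* with *SUS4*.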

How the data were processed

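RNA of 3 terrestrial and 3 aquatic samples was sequenced as paired ends, and samples were grouped by their labels. The authors assembled the reads with Trinity, and they name TopHat and Cufflinks, with no versions. No source used here states the strand. The deposited expected counts are whole numbers for each assembled transcript, in files laid out like those of RSEM, a tool that no source used here names. TPM and FPKM were computed by the authors, scaled to transcript length and library. The annotation table of the authors gives the best protein match, its score and its percent of identical residues (median 58%), and the descriptions of 151 transcripts were not analysed here. In it 6 value columns were not used.

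Expected counts were summed per *Arabidopsis* match and tested with edgeR 4.0.16 (quasi-likelihood, TMM, minimum count 10, harvest and condition as terms, Benjamini-Hochberg over all homologs, threshold 0.05) in R 4.3.3, and likewise per transcript. The edgeR tests of condition, harvest and their interaction per homolog, and of condition per transcript, were tried on simulated data. The other fits were not. Alternatives used DESeq2 1.42.0 and limma 3.58.1 on log2(FPKM + 1), log2(FPKM + 0.1) and log2(TPM + 1), other scalings, sums and filters, and left out libraries. The 5 members and all lists were chosen with earlier results of these data known. Named genes are the 5 members, their transcripts, the 3 homologs most like each, and in each list all that passed or else the 2 with the smallest adjusted p. Others named in a list were chosen after their values were seen.

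Same-numbered libraries deviated together (r = 0.645, 0.518 and 0.445 over homologs), so a fit blocked on that number is given where it changes a call. Terrestrial replicate 2 with aquatic replicate 3, and the reverse, had 0.452 and 0.559, so within 11 days the number itself is not set apart. Intervals cover counting error only.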

Additional observations from a re-analysis of the deposited data

Results flagged for a closer look

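None of the 5 homologs differed between harvests in its response to water after adjustment. Of the 58 tested genes on the lists, the 5 homologs included, 4 others did. Their aquatic effect at 14 days departed from that at 11 days by the interaction term of edgeR. This term passed for 4.61% of all homologs, so a few such genes among 58 are a description and not a trait of the lists. With 1 library of either condition at 14 days, this test takes its spread from the 11-day libraries alone. All 4 calls were lost without terrestrial replicate 2 or terrestrial replicate 3. That of *LDH1* was also lost with its leading transcript alone (-1.37, edgeR adjusted p = 0.0706).

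*LDH1* had 32.8 CPM on land and 7.29 under water at 14 days, against 52.5 and 59.7 on land and 43.0 and 40.0 under water at 11 days (log2 difference of effects -1.73 ± 0.24 (SE), adjusted p = 0.0322, and 0.109 and 0.102 without terrestrial replicates 2 and 3). AT1G32780, of the alcohol dehydrogenase family, had 522 and 124 CPM at 14 days, against 169 and 167 on land and 157 and 183 under water at 11 days (-2.10 ± 0.23, adjusted p = 0.0192, and 0.0803 and 0.0894 without those libraries). *PCO2*, a cysteine oxidase of the oxygen-sensing pathway, had 9.85 and 2.07 CPM at 14 days, against 3.61 and 2.06 on land and 9.76 and 14.4 under water at 11 days (-4.34 ± 0.67, adjusted p = 0.0409, and 0.0680 and 0.0971). *PCK1*, phosphoenolpyruvate carboxykinase, had 528 and 490 CPM at 14 days, against 77.0 and 80.9 on land and 220 and 277 under water at 11 days (-1.76 ± 0.28, adjusted p = 0.0427, and 0.132 and 0.147).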

How the results depend on the processing

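*ADH1*, *PDC1*, *PDC2*, *SUS4* and *LBD41* kept their direction in the condition test under every alternative that gave a value, and *LBD41*, at 56% identity, has none with 60% required. DESeq2, RLE size factors, no filter, the limma fits and totals without the dominant transcripts kept all 4 calls. Without a harvest term, log2 differences were -1.34 (*ADH1*), -1.93 (*PDC1*), 1.49 (*SUS4*) and 2.15 (*LBD41*), and none passed (adjusted p = 0.186, 0.0817, 0.0744 and 0.241). With the replicate block, *ADH1* (-1.21), *SUS4* (1.45) and *LBD41* (2.48) did not pass, and it changed no call of *PDC1* or *PDC2*. With libraries left out, values ran from -1.54 to -0.85 for *ADH1*, -2.01 to -1.61 for *PDC1*, 1.20 to 1.65 for *SUS4* and 1.93 to 2.76 for *LBD41*. Without the 14-day libraries all 4 calls held. Without replicate 2 or 3 of both conditions, none did.

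Homologs called were 1336, against 2684 in DESeq2, 34 without a harvest term, 445 with the replicate block and 831 with 60% identity. limma on TPM called 2048, 600 higher and 1448 lower, against 783 and 553, and limma on quantile FPKM 713 and 809. TPM moved the median of all homologs to -0.20. With libraries left out the count ran from 0 to 1628, the 0 in edgeR without aquatic replicate 2, or without replicate 2 or 3 of both conditions (unadjusted p under 0.05 for 2478, 1264 and 1369). For the difference between harvests, 376 were called, 733 in DESeq2, 219 with 60% identity, and 110 to 729 with libraries left out. Between harvests 2754 were called, and 1093 to 2704 with libraries left out. *PDC1*, *PDC2* and *LBD41* then lost the harvest call in 5, 4 and 4 of 6 cases. For transcripts 6073 were called, 9722 in DESeq2, 1826 with no filter, 3320 with the replicate block and 1638 to 6717 with libraries left out. Without a harvest term none of the other list genes called kept its call (adjusted p of 0.106 to 0.777). *FIT* turned to -0.57 with its leading transcript alone, from 0.45. The causes were not tested. With 6 libraries, differences of several standard errors (0.15 for *PDC2*) can be missed. *HRA1*, at 0.89 ± 0.30 (SE), did not pass (edgeR adjusted p = 0.0975).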

Other observations

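Of 39 transcripts that name an alcohol dehydrogenase in the protein name (10) or elsewhere in the description (29), 6 had a fungal best match, to *Magnaporthe oryzae* or *Aspergillus nidulans*. They were nearly limited to single libraries: 5 of them had 269, 210, 44, 27 and 17 counts in aquatic replicate 2 and 0 in the other 5 libraries. The match to alcA of *A. nidulans* had 88 counts in terrestrial replicate 3, 4 in aquatic replicate 3 and 1 in aquatic replicate 2. None of these enters the values of *ADH1*, which had 375 counts in aquatic replicate 2.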
